A study of Mus musculus with 12 samples.

Results

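The HOX genes were taken as every protein-coding gene whose symbol is Hox followed by a cluster letter from a to d and a number, which gave 39 of the 35523 genes in the RNA-seq files. The RNA came from primary cardiac fibroblasts of adult female and male C57BL/6J mice, wild type in genotype, that had received a scramble siRNA or an siRNA against histone H1.0, the linker histone encoded by H1f0, and then vehicle or TGF-β. TGF-β, the cytokine that turns fibroblasts into contractile, matrix-producing cells, was given at 10 ng/ml after 24 h in serum-free medium. The 4 groups were scramble with vehicle, scramble with TGF-β, H1.0 siRNA with vehicle and H1.0 siRNA with TGF-β, each with 3 libraries from biological replicates numbered 1 to 3. The rule used no measured value, so that every level and fold change below is a measurement of the group of genes as it stands.

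HOX genes encode homeodomain transcription factors that give cells their position along the body axis. In mice they lie in 4 clusters, Hoxa to Hoxd, and genes at the same place in different clusters are paralogs, numbered from 1 at the end that is active toward the head to 13 at the end that is active toward the tail. Fibroblasts of adult organs keep part of the HOX pattern of the region they came from, and Polycomb and Trithorax complexes hold the clusters silent or active. The factors bind DNA with partner homeodomain proteins of the PBX and MEIS families, and retinoic acid is a known inducer of genes at the head end of the clusters. In the GRCm38 annotation the Hoxa genes filled 105.3 kb of chromosome 6 (11 genes), the Hoxb genes 173.9 kb of chromosome 11 (10 genes), the Hoxc genes 115.8 kb of chromosome 15 (9 genes) and the Hoxd genes 96.8 kb of chromosome 2 (9 genes).

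The sequences below are the 250 bases before the RefSeq start of 5 HOX genes, from RefSeq on GRCm38.p6, written 5′ to 3′ on the strand of the gene with each CG dinucleotide in capitals. Hoxa5, Hoxb4 and Hoxc4 are shown because their levels varied together across the libraries, Hoxd8 because it was expressed with less of that variation, and Hoxb1 because it had no count in any library.
Hoxa5, chr6:52204588-52204837, reverse strand: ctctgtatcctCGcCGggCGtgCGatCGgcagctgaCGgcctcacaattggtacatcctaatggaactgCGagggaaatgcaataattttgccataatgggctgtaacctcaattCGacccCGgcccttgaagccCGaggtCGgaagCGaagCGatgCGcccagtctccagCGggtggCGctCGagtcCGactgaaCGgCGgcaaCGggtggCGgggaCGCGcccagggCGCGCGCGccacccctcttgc
Hoxb4, chr11:96318017-96318266, forward strand: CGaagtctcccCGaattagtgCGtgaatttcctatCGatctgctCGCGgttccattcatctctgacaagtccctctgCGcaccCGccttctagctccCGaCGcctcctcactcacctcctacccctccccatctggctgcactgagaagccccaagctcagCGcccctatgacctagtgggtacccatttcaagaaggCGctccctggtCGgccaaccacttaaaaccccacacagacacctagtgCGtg
Hoxc4, chr15:103034145-103034394, forward strand: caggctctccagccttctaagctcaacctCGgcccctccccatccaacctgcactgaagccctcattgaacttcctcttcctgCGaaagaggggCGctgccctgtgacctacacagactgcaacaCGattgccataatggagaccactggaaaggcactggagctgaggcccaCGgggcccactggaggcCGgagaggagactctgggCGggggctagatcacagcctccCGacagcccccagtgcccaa
Hoxd8, chr2:74704365-74704614, forward strand: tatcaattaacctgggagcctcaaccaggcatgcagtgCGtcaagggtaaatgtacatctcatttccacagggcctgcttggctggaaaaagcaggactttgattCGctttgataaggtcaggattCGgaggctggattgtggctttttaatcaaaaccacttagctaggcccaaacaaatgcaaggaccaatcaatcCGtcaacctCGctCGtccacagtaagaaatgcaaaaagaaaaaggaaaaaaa
Hoxb1, chr11:96365508-96365757, forward strand: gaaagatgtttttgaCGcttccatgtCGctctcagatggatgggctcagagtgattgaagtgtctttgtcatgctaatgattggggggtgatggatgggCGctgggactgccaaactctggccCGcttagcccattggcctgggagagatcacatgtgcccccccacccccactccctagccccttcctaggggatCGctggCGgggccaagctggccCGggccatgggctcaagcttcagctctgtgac

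These stretches held 28 CG dinucleotides for Hoxa5, 14 for Hoxb4, 8 for Hoxc4, 6 for Hoxd8 and 7 for Hoxb1. Promoter entries matched 22 of the 39 genes, whose windows held 2 to 35 CG dinucleotides with a median of 12.5, beside a median of 6 over all 32851 promoters in the table. The median was 14 for the 5 of these genes that were expressed in the fibroblasts and 12 for the 17 that were not. The letters TATAAA, those of a TATA box, were present on either strand in 4 of the 22 windows (Hoxa10, Hoxb8, Hoxd4 and Hoxd13) and in 12.4% of all promoters. The letters TGATNNAT, a site where HOX and PBX proteins bind together, were present in 3 windows (Hoxa2, Hoxb1 and Hoxb8) and in 7.68% of all promoters. A gene with 2 entries was counted by its first along the chromosome, and a match is a description of the letters only.

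The libraries held 19864545 to 36296333 estimated counts, and all 3 libraries of H1.0 siRNA with TGF-β were among the 4 deepest. H1f0 stood at 2515, 3033 and 2648 normalized counts (counts scaled to a common library size) in scramble cells with vehicle and at 980.1, 1075 and 600.5 in H1.0 siRNA cells with vehicle. It fell with the siRNA by 1.63 ± 0.22 (SE) on the log2 scale in vehicle cells (adjusted p = 0.0002, edgeR) and by 1.94 ± 0.22 in TGF-β cells (adjusted p = 5.8e-05, edgeR). TGF-β raised Postn and Acta2, markers of fibroblast activation, by 2.22 ± 0.19 and 1.75 ± 0.13 on the log2 scale in scramble cells (adjusted p = 3.9e-05 and 2.1e-05, edgeR). The 10 fibroblast markers examined summed to 14090 to 20910 TPM per library, beside 14.7 to 198 TPM for 9 cardiomyocyte markers, 614 to 1584 TPM for 10 macrophage markers and 28.1 to 65.5 TPM for 7 endothelial markers. In these bulk libraries fewer cells of a type and less RNA per cell cannot be told apart.

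Expression of the HOX genes in the cardiac fibroblasts was low and lay mostly at paralogs 2 to 5 of Hoxa and 2 to 4 of Hoxb. A mean of at least 1 TPM over the 12 libraries, the level taken here as expressed, was reached by 9 of the 39 genes, among them Hoxa2 to Hoxa5, Hoxb2, Hoxb3, Hoxb4 and Hoxd8. Of all 21784 protein-coding genes in the files, 57.8% reached this level, and the median of those was 22.9 TPM. The most abundant HOX gene, Hoxb2, a factor of the hindbrain segments in the embryo, had a mean of 10.7 ± 4.85 TPM (SD, n = 12 libraries), and 59.2% of coding genes had a lower mean. Hoxb3 followed at 6.50 ± 2.94 TPM, Hoxb4 at 5.47 ± 2.67 TPM, Hoxa5 at 4.95 ± 4.12 TPM and Hoxa3 at 4.47 ± 2.43 TPM. From Hoxb3 to Hoxa3, the standard deviations over the libraries were wider than the steps between neighbours in this order. Hoxa4 came to 2.54 ± 1.90 TPM, Hoxd8 to 1.87 ± 0.43 TPM and Hoxa2 to 1.02 ± 0.71 TPM.

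**Figure D1:**
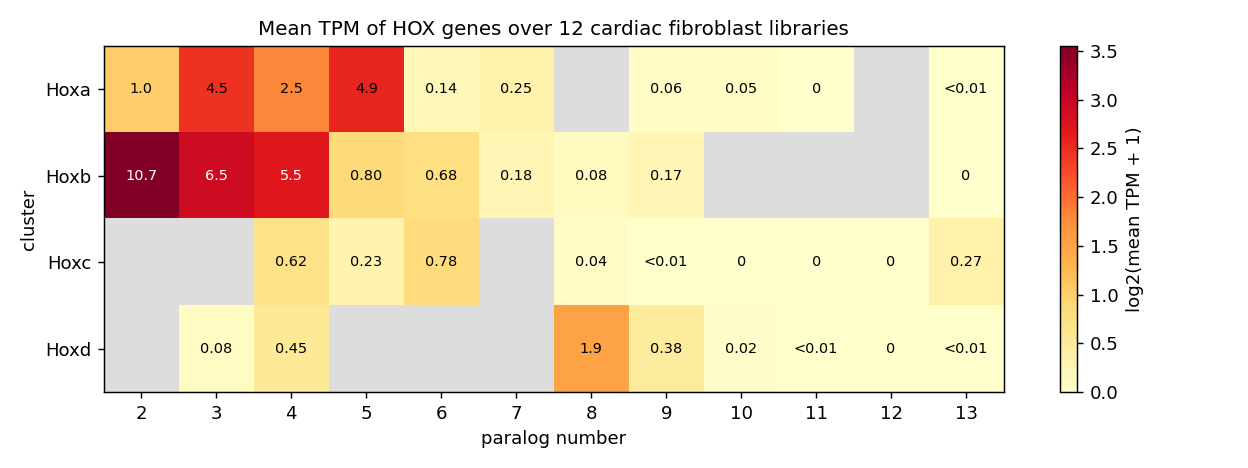
Mean TPM (a level corrected for transcript length and library size) of the HOX genes at paralogs 2 to 13 over the 12 libraries, with the 4 clusters as rows and the paralog number as columns; the colour is log2(mean TPM + 1), and grey squares have no gene. The squares at 1 TPM or more lie at paralogs 2 to 5 of Hoxa, 2 to 4 of Hoxb and 8 of Hoxd, and no gene from paralog 9 on reaches 0.4 TPM.

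By cluster, the Hoxb genes made up 54.2% of the summed HOX TPM, the Hoxa genes 35.3%, the Hoxd genes 6.19% and the Hoxc genes 4.28%. By position, paralogs 1 to 3 held 55.8%, paralogs 4 to 8 held 42.0% and paralogs 9 to 13 held 2.16%. No Hoxc gene reached 1 TPM. Its 3 most abundant members were Hoxc6 at 0.78 ± 0.77 TPM, Hoxc4 at 0.62 ± 0.61 TPM and Hoxc13, a gene known from hair follicle and nail, at 0.27 ± 0.17 TPM. In Hoxd, Hoxd8 was followed by Hoxd4 at 0.45 ± 0.31 TPM and Hoxd9 at 0.38 ± 0.23 TPM. Only 53.6% of the Hoxd4 level came from transcripts annotated as protein-coding, whereas the share was at least 86.9% for each of the 9 expressed genes.

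The tail end of the clusters was at or close to 0. Of the 16 genes numbered 9 to 13, which pattern the limbs, gut end and genital region, 5 passed the minimum of 10 counts over all libraries (Hoxa9, Hoxa10, Hoxb9, Hoxc13 and Hoxd9), and none had a mean above 0.379 TPM. In all, 26 of the 39 genes passed this minimum, 17 of them with a mean under 1 TPM. Another 5 genes had between 3 and 6 counts (Hoxa13, Hoxc9, Hoxd10, Hoxd11 and Hoxd13). The remaining 8 had no count in any library (Hoxa11, Hoxb1, Hoxb13, Hoxc10, Hoxc11, Hoxc12, Hoxd1 and Hoxd12), which over the counts of all 12 libraries allows a level of up to 0.0093 CPM, with 3 counts taken as the limit of a 0. The annotated span of Hoxa3, introns included, overlaps Hoxa4, Hoxa5 and Hoxa6, that of Hoxc5 overlaps Hoxc6, Hoxc8, Hoxc9 and Hoxc10, and that of Hoxd3 overlaps Hoxd4. The split of reads among these genes is uncertain where their transcripts share sequence, which was not examined.

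Most expressed HOX genes varied more with the replicate number than with either treatment. In every group the replicate 2 library held the highest HOX total and the replicate 3 library the lowest. The summed TPM was 34.9, 59.7 and 21.5 in replicates 1, 2 and 3 of scramble with vehicle and 35.7, 69.0 and 22.4 in those of scramble with TGF-β. It was 39.5, 77.9 and 22.9 in H1.0 siRNA with vehicle and 42.1, 88.1 and 31.2 in H1.0 siRNA with TGF-β. An F test of the replicate terms of a fit that held the 4 groups and the replicate number (edgeR) called 12 of the 26 tested HOX genes at an adjusted p under 0.01, or 46.2%, beside 7.14% of all 18028 genes tested. This test was added after the values of the libraries had been seen.

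The genes that differed between replicate numbers were Hoxa2 to Hoxa5, Hoxb2 to Hoxb6 and Hoxc4 to Hoxc6. All 12 lie at paralogs 2 to 6, where 15 genes were tested, and none of the 11 tested genes outside these positions was called; the range was drawn after the calls were known. By cluster the call was made for 4 of 9 tested Hoxa genes, 5 of 8 Hoxb genes, 3 of 5 Hoxc genes and none of 4 Hoxd genes. For 12 of 12 genes replicate 2 was the highest library in all 4 groups, and for 9 replicate 3 was the lowest in all 4. The ratio of the replicate 2 mean to the replicate 3 mean ran from 2.2 to 24.6.

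Hoxa5, a regulator of lung and thoracic development, had normalized counts of 52.3, 88.2, 75.3 and 100.1 in the 4 replicate 1 libraries (scramble with vehicle, scramble with TGF-β, H1.0 siRNA with vehicle and H1.0 siRNA with TGF-β, in this order here and below). It had 176, 223, 266 and 326 in the replicate 2 libraries and 30.7, 31.8, 33.3 and 54.4 in the replicate 3 libraries. Every replicate 2 library was above the 8 others, while the replicate 1 and 3 libraries overlapped across groups. The mean of replicate 2 was 6.60 times that of replicate 3 (adjusted p = 9.7e-06, edgeR). Hoxa3, which patterns the pharyngeal arches, had 73.0, 88.2, 93.3 and 133 normalized counts in replicate 1, 161, 210, 198 and 279 in replicate 2 and 35.6, 48.8, 36.2 and 62.9 in replicate 3 (adjusted p = 9.7e-06, edgeR). For this gene the 3 sets did not overlap, with a ratio of 4.62.

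In the expressed Hoxb genes the replicate 2 mean was 2.20 to 2.68 times the replicate 3 mean. Hoxb4, a factor also known from blood stem cells, had 141, 161, 189 and 140 normalized counts in replicate 1, 277, 243, 373 and 301 in replicate 2 and 95.8, 110.1, 119.8 and 118.8 in replicate 3. The ratio was 2.68 (adjusted p = 8.2e-05, edgeR). Hoxb3 had 235, 222, 160 and 201 in replicate 1, 359, 360, 316 and 376 in replicate 2 and 141, 148, 96.9 and 152 in replicate 3, a ratio of 2.62 (adjusted p = 5.9e-05, edgeR). Hoxb2 had 172, 189, 225 and 296 in replicate 1, 232, 287, 321 and 499 in replicate 2 and 90.9, 122.6, 129 and 264.9 in replicate 3, a ratio of 2.20 (adjusted p = 0.00029, edgeR). The replicate 3 library of H1.0 siRNA with TGF-β, at 265, lay above the lowest replicate 2 library of Hoxb2, so that the replicate sets of this gene overlapped between treatments although their order was kept within each group.

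Hoxc4 and Hoxc6, both under 1 TPM, were highest in replicate 2 in every group. Hoxc4 had 5.45, 11.8, 6.74 and 10.9 normalized counts in replicate 1, 33.5, 30.3, 33.1 and 50.1 in replicate 2 and 4.91, 3.40, 0.739 and 3.11 in replicate 3 (adjusted p = 0.00037, edgeR). Hoxc6 had 6.53, 5.88, 8.99 and 6.98 in replicate 1, 27.3, 33.1, 30.8 and 44.7 in replicate 2 and 3.68, 0, 2.22 and 10.1 in replicate 3 (adjusted p = 0.0028, edgeR). For both genes every replicate 2 library was above the 8 others. Hoxb5 and Hoxb6 had the widest ratios of replicate 2 to replicate 3, at 24.6 and 19.4, on replicate 3 means of 1.97 and 1.55 normalized counts, so that a few counts set the size of these ratios.

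Hoxd8, Hoxd4, Hoxc13 and Hoxd9 were not called between replicate numbers. Hoxd8 had 39.2, 58.8, 64.1 and 55.1 in replicate 1, 59.6, 60.7, 84.1 and 85.6 in replicate 2 and 47.9, 30.6, 48.8 and 42.7 in replicate 3; replicate 2 was highest in each group, and the test missed the threshold (adjusted p = 0.045, edgeR). Hoxc13 and Hoxd9 had replicate means of 8.73 to 9.11 and of 8.77 to 13.6 normalized counts (adjusted p = 0.98 and 0.65, edgeR). Hoxd4, which had 5.43 to 13.1 normalized counts in replicate 1, 6.89 to 23.6 in replicate 2 and 6.14 to 10.1 in replicate 3, was not called either (adjusted p = 0.37, edgeR). That the replicate difference is larger for one HOX gene than for another was not tested.

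**Figure D2:**
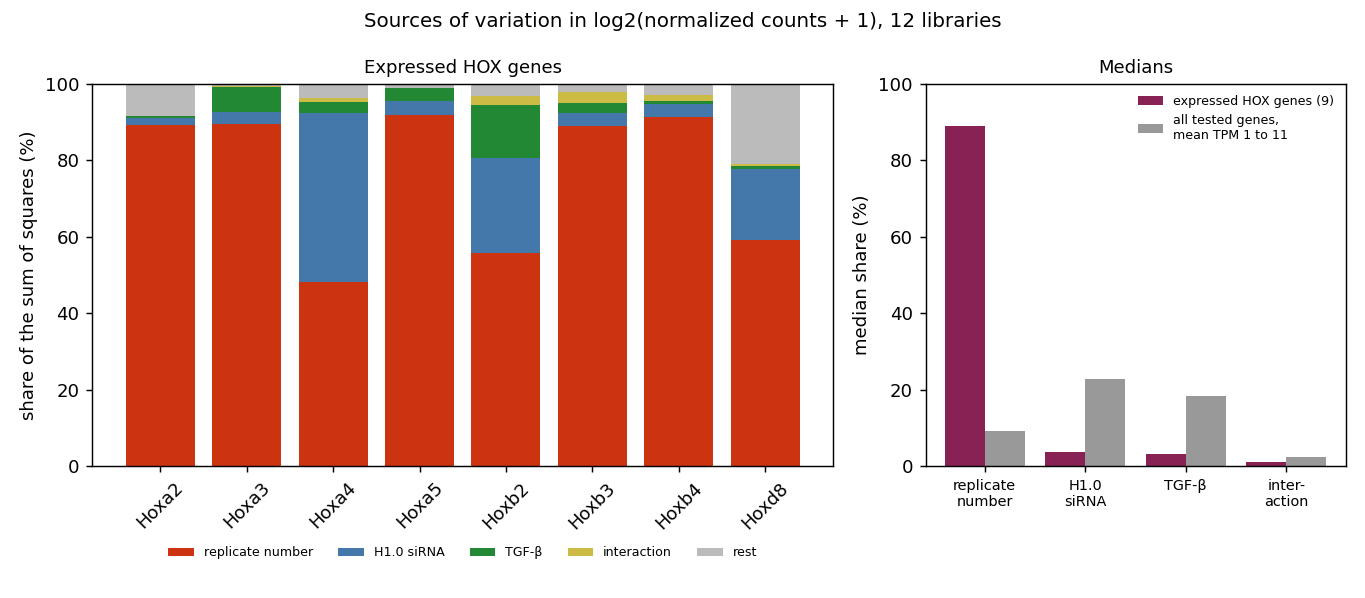
Left, the share (percent) of the sum of squares of log2(normalized counts + 1) over the 12 libraries that goes to the replicate number, the siRNA, TGF-β, their interaction and the rest, for 8 of the 9 expressed HOX genes. Right, the median shares of the 9 expressed genes beside those of the 4324 tested genes with a mean of 1 to 11 TPM; the replicate number takes a median of 89% in the former and 9.25% in the latter.

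Split by source, the replicate number held the largest share of the sum of squares in 8 of the 9 expressed HOX genes, in 17 of the 26 tested HOX genes and in 8.96% of all tested genes. In the 9 expressed genes its median share was 89%, the siRNA had 3.6% and TGF-β 3.1%. The medians over all tested genes were 8.41% for the replicate number, 23.1% for the siRNA and 17.5% for TGF-β. The replicate number has 2 degrees of freedom and each treatment 1, in the HOX genes as in all others. The share was 91.7% for Hoxa5, 91.2% for Hoxb4, 89.4% for Hoxa3, 89.1% for Hoxa2 and 89.0% for Hoxb3. It was 55.7% for Hoxb2 and 48.1% for Hoxa4, genes in which the siRNA held 24.8% and 44.1%. For Hoxd9 and Hoxc13 the siRNA held the largest share, at 69.8% and 67.9%.

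Other measurements moved with the replicate number, and their part in the HOX differences was not tested. The cultures came from mice of both sexes, and 4 Y-linked genes (Ddx3y, Eif2s3y, Kdm5d and Uty) summed to 72.9 to 87.4 TPM in the replicate 1 libraries, 129 to 143 TPM in replicate 2 and 120 to 134 TPM in replicate 3. This list was also chosen after the libraries had been seen. In every group the Y-linked sum was lowest in replicate 1 and highest in replicate 2. The 7 epicardial and mesothelial markers examined summed to 12.8 to 39.6 TPM per library, and their order differed between the siRNAs. In scramble cells replicate 2 had the lowest sum of its group, with 15.8 TPM with vehicle and 12.8 TPM with TGF-β, and in siRNA cells it had the highest, with 32.3 and 39.6 TPM. Among the markers Wt1 averaged 1.22, 6.81 and 1.64 TPM and Upk1b 0.71, 4.33 and 1.15 TPM, and both were called between replicate numbers. Both were highest in replicate 2 in every group, unlike the sum in scramble cells. Upk3b stayed at 8.48, 8.26 and 8.51 TPM and was not called. The counts of genes called between replicate numbers, here and in the next paragraph, stand beside 7.14% of all genes tested. Of the 8 smooth muscle and pericyte markers 5 were called, with different orders. Myh11 averaged 2.49, 7.70 and 1.52 TPM in replicates 1, 2 and 3, whereas Notch3 averaged 17.4, 13.6 and 7.87 TPM and Rgs5 11.2, 10.3 and 4.14 TPM. Of the 10 fibroblast markers 2 were called, as were 2 of the 10 macrophage, 1 of the 7 endothelial and none of the 9 cardiomyocyte markers.

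Transcription factors of other body regions and heart fields were examined beside the HOX genes. Of 36 such genes 34 were tested and 10 were called between replicate numbers, among them Tbx2, Tbx3, Tbx5, Tbx20, Barx1, Foxf1, Meox1, Prrx2 and Wt1. Tbx3 and Tbx5, T-box factors of the heart and limb, averaged 6.04 and 6.60 TPM in replicate 2 against 1.90 and 3.68 TPM in replicate 3. Tbx20, the most abundant of these 3 T-box genes, had another order, with 281, 212 and 184 TPM in replicates 1, 2 and 3. Among 17 tested regulators known to act upstream of HOX genes, 6 were called: the retinoic acid binding protein gene Crabp2, the retinaldehyde dehydrogenase genes Aldh1a2 and Aldh1a3, and the receptor genes Rara, Rarb and Rxra. Crabp2 and Rarb were highest in replicate 3, at 19.4 and 6.44 TPM, against 3.598 and 1.24 TPM in replicate 2. The replicate 3 library of H1.0 siRNA with TGF-β, at 60.7 TPM, set most of this Crabp2 mean. Aldh1a2, Aldh1a3, Rara and Rxra were lowest in replicate 3, as were most of the called HOX genes. They stood there at 56.0, 142, 25.9 and 40.4 TPM, against 90.2, 244, 37.2 and 55.6 TPM in replicate 2. Of the 9 HOX cofactor genes 2 were called, among them Meis1, which was highest in replicate 2, at 25.2 TPM. Of 29 Polycomb genes 2 were called (Pcgf3 and Cbx6), of 16 Trithorax and H3K27 demethylase genes 1 (Dot1l), and of 18 tested genes beside the clusters 1 (Skap2).

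**Figure D3:**
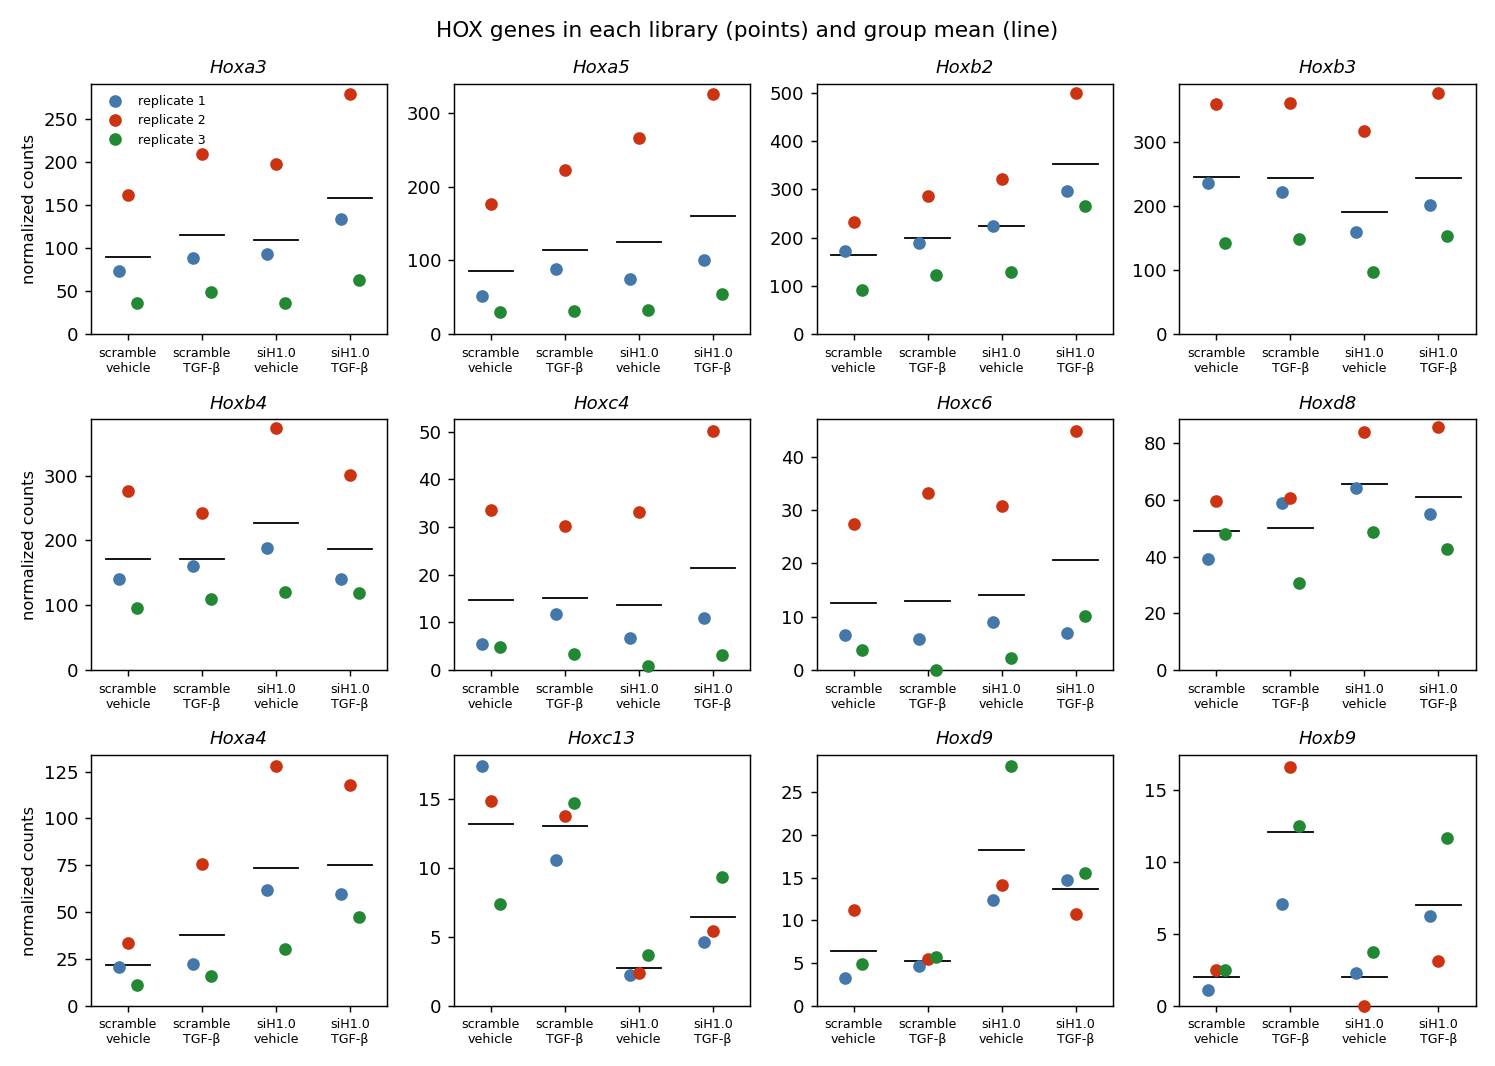
Normalized counts (linear axes from 0) of 12 HOX genes in each of the 12 libraries by group, coloured by replicate number, with the group mean as a line. The replicate 2 points of Hoxa3, Hoxa5, Hoxb2, Hoxb3, Hoxb4, Hoxc4 and Hoxc6 are the highest of every group, whereas Hoxc13 and Hoxd9 separate the siRNA groups.

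The comparison of the H1.0 siRNA with the scramble siRNA asks whether the HOX genes shift when H1f0 is lowered. With vehicle, edgeR called 1 of the 26 tested HOX genes, Hoxc13, which was lower, where 24.7% of all genes tested were called (13.4% higher and 11.2% lower). Hoxc13 had 17.4, 14.9 and 7.37 normalized counts in scramble cells and 2.25, 2.37 and 3.70 in siRNA cells. The groups did not overlap, and the log2 fold change was −2.17 ± 0.48 (adjusted p = 0.0041, edgeR). The call rests on about 100 counts over all libraries and was lost without any 1 of 5 of the 6 libraries compared (adjusted p from 0.01 to 0.02; the exception was the replicate 3 library of scramble with vehicle). With TGF-β, Hoxc13 had 10.6, 13.8 and 14.8 normalized counts in scramble cells and 4.66, 5.40 and 9.32 in siRNA cells, again apart, with a log2 fold change of −1.0 ± 0.42 (adjusted p = 0.091, edgeR).

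Because the replicate numbers were taken to pair the libraries, the same comparisons were fitted with the replicate number as a block. In that fit Hoxa4, expressed from the middle of its cluster, was higher with the siRNA under both conditions. Hoxa4 had 20.7, 33.5 and 11.1 normalized counts in scramble cells with vehicle and 61.8, 128 and 30.3 in siRNA cells. The groups overlapped, and each siRNA library was above the scramble library of its own number. The log2 fold change was 1.67 ± 0.26 (adjusted p = 0.0003, edgeR with the block; 1.73 ± 0.69 and adjusted p = 0.074 without it). With TGF-β, Hoxa4 had 22.3, 75.8 and 15.9 normalized counts in scramble cells and 59.7, 118 and 47.4 in siRNA cells. The change was 1.13 ± 0.24 (adjusted p = 0.0024, edgeR with the block; 1.00 ± 0.66 and adjusted p = 0.28 without it), higher in 3 of 3 pairs.

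Hoxb2 was higher with the siRNA in the TGF-β libraries. It had 189, 287 and 122.6 normalized counts in scramble cells and 296, 499 and 265 in siRNA cells, higher in 3 of 3 pairs, by 0.86 ± 0.13 on the log2 scale (adjusted p = 0.00032, edgeR with the block; 0.83 ± 0.42 and adjusted p = 0.16 without it). With vehicle, Hoxb2 had 172, 232 and 90.9 in scramble cells and 225, 321 and 129 in siRNA cells, and its log2 fold change of 0.44 ± 0.14 did not pass (adjusted p = 0.022, edgeR with the block). In the blocked fit, 1 HOX gene was called higher (Hoxa4) and 1 lower (Hoxc13) with vehicle, where 33.6% of all genes were called, and 2 higher (Hoxa4 and Hoxb2) and none lower with TGF-β, where 33.6% were called. These counts of HOX genes are smaller shares than those of all genes, a difference that was not tested. Of the 26 tested HOX genes 17 had a mean under 1 TPM, and the calls were not compared with those of genes of like level. The libraries of H1.0 siRNA with TGF-β were also the deepest of their comparison, and with every library thinned to the lowest total Hoxb2 stood at 0.85 (adjusted p = 0.00029, edgeR with the block) and Hoxa4 at 1.05 (adjusted p = 0.01). Without all 4 libraries of replicate 1, 2 or 3, Hoxa4 in TGF-β cells had adjusted p-values of 0.039, 0.01 and 0.015 and missed the threshold. Without the block no HOX gene was called with TGF-β, where 24.3% of all genes were called. In that fit 2 HOX genes had an unadjusted p under 0.05, where 43.8% of all genes did. DESeq2 and limma-voom without the block called 0 with TGF-β. DESeq2 with the block called 2 HOX genes with TGF-β and 2 with vehicle.

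Hoxd9 missed the threshold in both siRNA comparisons. It had 3.27, 11.2 and 4.91 normalized counts in scramble cells with vehicle and 12.4, 14.2 and 28.1 in siRNA cells, and 4.70, 5.52 and 5.67 against 14.7, 10.8 and 15.5 with TGF-β. The groups did not overlap in either condition, and the log2 fold changes were 1.52 ± 0.48 and 1.35 ± 0.49 (adjusted p = 0.027 and 0.053, edgeR). Without the replicate 2 library of scramble with vehicle the former was 2.16 with an adjusted p of 0.0093. The median log2 fold change of the 9 expressed genes with the siRNA was 0.40 with vehicle and 0.29 with TGF-β, with 6 and 8 of the 9 above 0, beside medians over all tested genes of 0 and 0.037. By cluster, the expressed genes had medians of 0.26 in Hoxa (5 genes) and 0.40 in Hoxb (3 genes) with vehicle and of 0.47 and 0.13 with TGF-β, and Hoxd8 stood at 0.42 and 0.29. Over the 9 tested Hoxa and 8 tested Hoxb genes, which include genes at few counts, the medians with vehicle had the other sign, at −0.17 and −0.13. In the fit with the block these medians were −0.02 and 0.025. Hoxb3 went the other way from Hoxb2 and Hoxb4 with vehicle, at −0.42 ± 0.12, and missed the threshold (adjusted p = 0.013, edgeR with the block). Without the block its change was −0.37 ± 0.50 (adjusted p = 0.61, edgeR). Some marker levels moved with the siRNA too. Of the 9 cardiomyocyte markers 2 were called lower in each siRNA comparison, Tnnt2 and Ryr2, and Tnnt2, at 128 to 188 TPM in the scramble and 9.66 to 18.3 TPM in the siRNA libraries, made up most of the summed level of that list. Of the 8 smooth muscle and pericyte markers 2 were called lower in each, and their sum was 127 to 448 TPM in the scramble and 38.7 to 99.8 TPM in the siRNA libraries. Their part in the HOX values was not tested.

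For TGF-β against vehicle, calls of HOX genes were made in the blocked fit of siRNA cells. In scramble cells no HOX gene was called by edgeR, with or without the block, where 18.4% of all genes were called without it (7.94% lower) and 28.4% with it. At an unadjusted p under 0.05 the count was 1 without the block and 4 with it, where 41.9% and 47.7% of all genes passed. DESeq2 and limma-voom called 0. In siRNA cells edgeR called none without the block, where 15.7% of all genes were called (9.14% higher and 6.6% lower). In that fit 3 HOX genes had an unadjusted p under 0.05, where 39.1% of all genes did. DESeq2 and limma-voom without the block called 0, and DESeq2 with the block called 2. With the block, edgeR called 2 genes higher and none lower, where 26.8% of all genes were called.

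Those genes were Hoxa3 and Hoxb2. Hoxb2 rose from 225, 321 and 129 normalized counts with vehicle to 296, 499 and 265 with TGF-β in siRNA cells, in 3 of 3 pairs, by 0.69 ± 0.13 on the log2 scale (adjusted p = 0.0015, edgeR with the block; 0.66 ± 0.42 and adjusted p = 0.27 without it). Hoxa3 rose from 93.3, 198 and 36.2 to 133, 279 and 62.9, in 3 of 3 pairs, by 0.59 ± 0.13 (adjusted p = 0.0034, edgeR with the block; 0.56 ± 0.74 and adjusted p = 0.63 without it). The vehicle and TGF-β libraries of both genes overlapped as groups. In scramble cells the changes of Hoxb2 and Hoxa3 were 0.28 ± 0.14 and 0.36 ± 0.14 (adjusted p = 0.14 and 0.052, edgeR with the block). The blocked call of Hoxa3 was lost without any 1 of 5 of the 6 libraries compared, with adjusted p-values of 0.011 to 0.017.

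Hoxb9, a posterior gene of low level, had 1.09, 2.48 and 2.46 normalized counts in scramble cells with vehicle and 7.06, 16.5 and 12.5 with TGF-β. These groups did not overlap, and the log2 fold change of 2.52 ± 0.78 missed the threshold (adjusted p = 0.029, edgeR). In siRNA cells it had 2.25, 0 and 3.70 normalized counts in vehicle libraries and 6.21, 3.09 and 11.7 after TGF-β, a change of 1.63 ± 0.74 (adjusted p = 0.13, edgeR). The 9 expressed genes had a median log2 fold change with TGF-β of 0.22 in scramble and 0.38 in siRNA cells, with 7 of 9 above 0 in each, beside medians over all tested genes of −0.01 and −0.009.

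**Figure D4:**
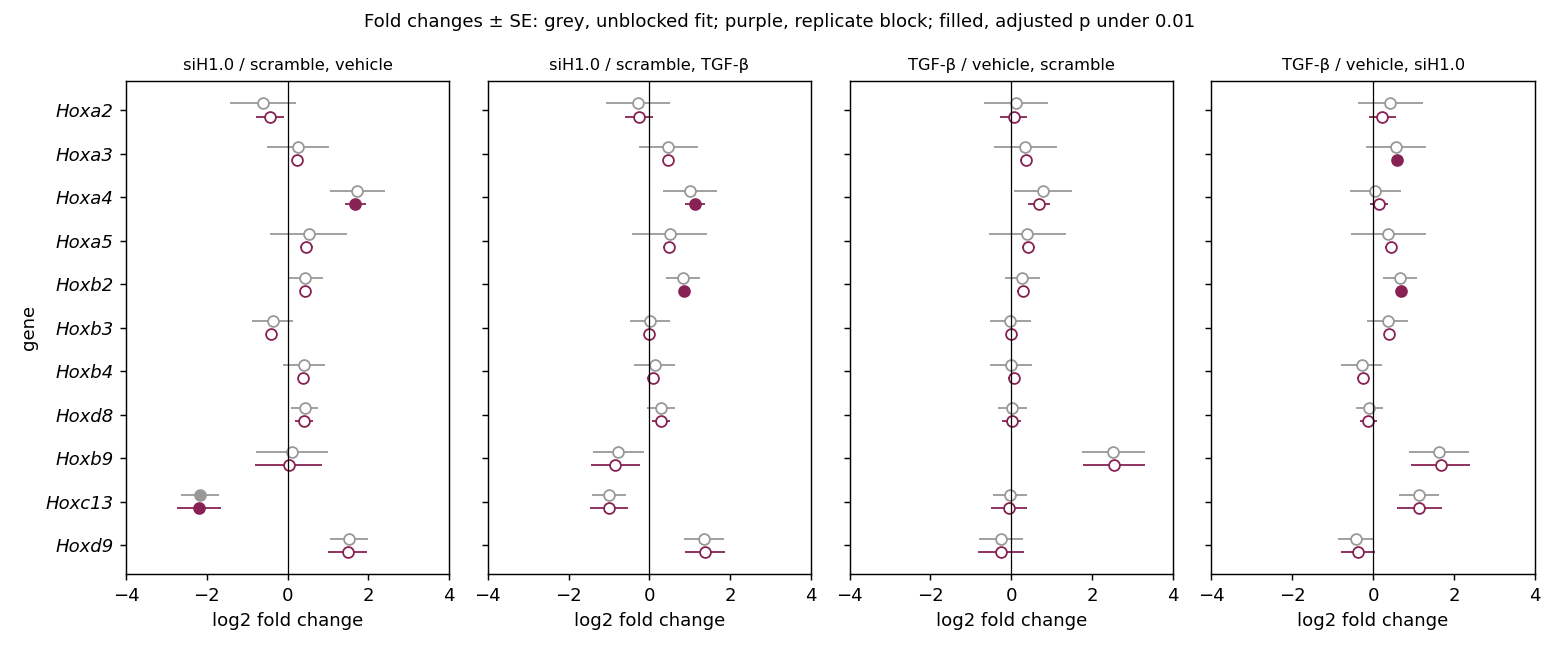
Log2 fold changes (horizontal axis) with their standard errors for 8 of the 9 expressed HOX genes and for Hoxb9, Hoxc13 and Hoxd9 in the 4 comparisons of the design, without (grey) and with (purple) the replicate number as a block; filled points have an adjusted p under 0.01. The points of the 2 fits lie close together, while the error bars of genes that vary with the replicate number, such as Hoxa5 (0.96 and 0.16 for the siRNA with vehicle), are shorter with the block.

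The interaction, which asks whether the TGF-β change differed between siRNA and scramble cells, called no HOX gene in either fit, where 0.0444% of all genes were called without the block (0.0333% higher) and 0.655% with it (0.41% higher; edgeR). At an unadjusted p under 0.05 the count was 1 in each fit, where 11.9% of all genes passed without the block and 18.3% with it. DESeq2 and limma-voom called 0. The interaction of Hoxb2 was 0.42 ± 0.19 (adjusted p = 0.28, edgeR with the block), that of Hoxa3 0.22 ± 0.18 (adjusted p = 0.58) and that of Hoxa4 −0.54 ± 0.35 (adjusted p = 0.46). The responses in the 2 kinds of cell were therefore not shown to differ for these genes.

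Among genes that read or set the HOX pattern, several changed with the siRNA, and the counts below stand beside 24.7% of all genes called with vehicle and 24.3% with TGF-β. Of the 29 Polycomb genes, which keep HOX clusters silent, 10 fell and none rose with vehicle, and 10 fell and 2 rose with TGF-β (edgeR), with median log2 fold changes of −0.23 and −0.22. Bmi1, a subunit of the complex that ubiquitinates H2A, fell by 1.13 ± 0.08 and 1.18 ± 0.08 (adjusted p = 4.2e-06 and 2.8e-06, edgeR), and its partner Phc1 fell by 1.02 ± 0.11 and 0.71 ± 0.11 (adjusted p = 3.6e-05 and 0.00039, edgeR). Ezh2, the H3K27 methyltransferase, fell by 0.73 ± 0.12 and 1.20 ± 0.12 (adjusted p = 0.00071 and 2.3e-05, edgeR). Of 16 Trithorax and demethylase genes, 3 rose and 4 fell with vehicle, and none rose and 3 fell with TGF-β. The H3K79 methyltransferase gene Dot1l fell by 0.76 ± 0.13 and 0.95 ± 0.13 (adjusted p = 0.00086 and 0.00018, edgeR).

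Among upstream regulators, 2 rose and 3 fell of 17 tested in each siRNA comparison. Aldh1a2, which makes retinoic acid, fell by 2.75 ± 0.39 with vehicle and by 2.36 ± 0.38 with TGF-β (adjusted p = 0.00023 and 0.00055, edgeR). Aldh1a3, an enzyme gene of the same kind, was higher, at 63.2, 82.7 and 36.2 TPM in scramble and 216, 214 and 69.6 TPM in siRNA cells with vehicle. It was called in the fit with the block only, at 1.31 ± 0.18 with vehicle and 1.54 ± 0.18 with TGF-β (adjusted p = 0.00016 and 4.6e-05, edgeR). The receptor gene Rarg rose by 1.12 ± 0.11 and 1.07 ± 0.11 (adjusted p = 2e-05 and 2.3e-05, edgeR). Of the 9 cofactor genes, none rose and 1 fell with vehicle, and 2 rose and 1 fell with TGF-β; the one that fell in both was Pknox2, by 1.71 ± 0.12 and 1.03 ± 0.12 (adjusted p = 2.7e-06 and 5.2e-05, edgeR). Of the 18 tested genes that lie beside the clusters, 6 rose and 3 fell with vehicle and 4 rose and 3 fell with TGF-β. Cbx1, a heterochromatin protein gene beside Hoxb, fell by 1.41 ± 0.10 and 1.56 ± 0.10, and Smug1, a DNA repair gene beside Hoxc, rose by 1.31 ± 0.11 and 1.17 ± 0.11.

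For TGF-β against vehicle, the counts of the same lists stand beside 18.4% of all genes called in scramble cells and 15.7% in siRNA cells. Of the Polycomb genes 4 rose and 4 fell in scramble cells and 4 rose and 7 fell in siRNA cells, among them Cbx7, a reader of H3K27 methylation, which fell by 2.09 ± 0.23 and 1.97 ± 0.22 (adjusted p = 0.00012 and 0.0001, edgeR). Of the Trithorax and demethylase genes 3 rose and 1 fell of 16 in scramble cells, and 1 rose and 1 fell in siRNA cells. Of the upstream regulators 3 rose and 1 fell in scramble cells and 2 rose and 1 fell in siRNA cells, and in both Crabp2 rose, by 6.08 ± 1.38 and 6.01 ± 1.07 (adjusted p = 0.0066 and 0.0019, edgeR), as did Egr2, a hindbrain factor and immediate early gene, by 2.79 ± 0.25 and 4.13 ± 0.26 (adjusted p = 4.7e-05 and 4.3e-06, edgeR). No cofactor gene was called in scramble cells (2 were called with the block), and 1 rose in siRNA cells, Pknox2, by 1.14 ± 0.12 (adjusted p = 7.5e-05, edgeR). Of the genes beside the clusters 6 rose and 2 fell in scramble cells and 3 rose and 1 fell in siRNA cells. The lists are descriptions, and no list was tested as a set.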

How the data were processed

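RNA-seq of 12 libraries (4 groups of 3) was analysed. The authors sequenced rRNA-depleted RNA and deposited, per transcript, Salmon estimated counts, TPM and effective length (mm10). Transcripts were matched to genes with GENCODE M21 (GRCm38): 115973 of 117135, with at least 99.54% of counts. The deposited estimated counts were summed per gene and rounded, and the deposited TPM were summed per gene and used for levels. Normalized counts are TMM-scaled CPM times the mean library total. Tests covered 18028 genes whose summed count was 10 or more, using edgeR 4.0.16 quasi-likelihood fits over all 12 libraries (adjusted p under 0.01, Benjamini-Hochberg over all genes); a self-test on simulated counts preceded it. A fit with the replicate number as a block, DESeq2 1.42.0, limma-voom 3.58.1 and other alternatives were run. Genes with values per library were the 3 most abundant of each cluster and those called; others were added after their values were seen (Hoxb9 and the Y-linked genes). The HOX genes, the gene lists and their tests were chosen with earlier results of these data known.

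Same-numbered libraries correlated in their deviations from the group means by 0.067 to 0.337 over all tested genes (14 of 18 pairs above 0.1) and by 0.109 to 0.479 (18 of 18) over the 14256 genes with a mean count of at least 10, a gene set chosen after the former values were seen. Libraries of different numbers gave −0.275 to 0.064 over all tested genes. Over the 14256 genes they gave −0.416 to 0.123, with 3 of 36 pairs above 0.1. The planned rule, every same-numbered pair above 0.1, was met over the 14256 genes but not over all tested genes. The numbers were taken to pair the libraries, which the labels do not state, and p-values measure the spread between these libraries. Replicate libraries of a group differed by more than counting noise (chi-square over its degrees of freedom 8.95 to 64.8). Reads of a gene and an antisense partner cannot be told apart, since the strand setting is not given in the sources used here. A few genes that the rules above would name are not reported here. The antisense gene Hoxb3os, for example, spans Hoxb2 and the end of Hoxb3 in the annotation. Of 17 noncoding RNAs of the clusters that were looked for, none was among the quantified genes, so they were not analysed here. No protein sequence was used.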

Additional observations from a re-analysis of the deposited data

How the results depend on the processing

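With the replicate block, 2 genes were called higher for TGF-β in siRNA cells, 2 for the siRNA with TGF-β and 1 for the siRNA with vehicle, where the fit without it called 0 of each. Thinned to the lowest library total, the fit without the block called 0 genes lower for the siRNA with vehicle. Thinned with the block, 1 gene was called higher for TGF-β in siRNA cells, 1 higher for the siRNA with TGF-β and 0 lower for the siRNA with vehicle; Hoxc13, Hoxa4 (with TGF-β) and Hoxa3 then had adjusted p-values of 0.016, 0.01 and 0.011. Thinning leaves fewer counts. At a mean of at least 5 TPM 3 HOX genes were expressed, at 0.5 TPM 13, and without each library in turn 8 to 9.

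Without each library in turn and without the block, 0 to 1 gene was called lower and 0 to 1 higher for the siRNA with vehicle, the latter without scramble_vehicle replicate 2, which leaves Hoxd9 at 2.16; the change of Hoxa3 with TGF-β in siRNA cells ran from −0.13 (without siH1.0_TGFb replicate 2) to 1.32. With the block, leaving out each library, or the 4 libraries of a number (added after seeing the data, like every alternative of the blocked fit), gave 0 to 2 genes higher for TGF-β in siRNA cells, 0 to 3 for the siRNA with TGF-β and 0 to 2 for the siRNA with vehicle, and 0 to 1 lower in the last. Without the 4 replicate 2 libraries, no HOX gene was called in these 3 comparisons; Hoxa4 and Hoxb2 kept their direction, at 1.5 and 1.5 with the siRNA (vehicle and TGF-β) for Hoxa4 and 0.89 and 0.73 (siRNA with TGF-β, and TGF-β in siRNA cells) for Hoxb2. The count of HOX genes that differed between replicate numbers was 10 to 12 without each library and 11 to 12 under the other alternatives.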
